A study of Mus musculus with 14 samples.

Results

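Liver sinusoidal endothelial cells (LSEC) of mice that carried floxed alleles of 3 forkhead transcription factor genes were compared between 3 samples with and 3 samples without a Cre transgene, 6 of the 14 samples of the series. The labels write the alleles Fk1 L/L, Fk2 L/L and Afx L/L, which are older names for the genes Foxo1, Foxo3 and Foxo4. Every group, the controls included, carried the floxed alleles on an FVBn background. Experimental samples were MxCre+ and are called Cre+ here. Controls were MxCre-. The Mx promoter that drives this Cre answers to interferon and is not restricted to endothelium. The remaining 8 samples were lung endothelial cells and thymus of the same 2 genotypes, with 2 samples a group. They entered the normalization, the choice of 1 probe set per gene, the level filter and the model's estimate of spread. Their own effects are given below only where an effect in LSEC was set against them. The labels used here do not give the animals' age, say how or when Cre was induced or how cells were isolated, or say whether replicates came from separate animals, so p-values measure the spread between these samples. All named probe sets of the array were used: 18193 genes were represented by 1 probe set each, and 13035 of them were bright enough in at least 1 tissue to be tested (limit 6.87 on the log2 scale).

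FoxO factors are transcription factors that act in the nucleus when growth factor signalling is low. Insulin and other ligands act through the kinase Akt, which phosphorylates FoxO proteins and keeps them in the cytoplasm. Nuclear FoxO proteins bind short elements in target genes of cell cycle arrest, metabolism and stress resistance, and in blood vessels they hold endothelial cells quiescent. LSEC line the capillaries of the liver; they are perforated by fenestrae, lack an organised basement membrane and take up waste macromolecules through scavenger and lectin receptors. They also send Wnt and BMP signals to hepatocytes, which set metabolic zonation and iron sensing.

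The labelled cell type was borne out by its markers in controls. Of 21 LSEC markers 20 were tested, and these averaged 10.10 to 10.43 on control arrays. The 20 pan-endothelial markers averaged 10.16 to 10.49 there. All tested markers of both lists were at or above the limit of 6.87 in both genotypes. That count was partly fixed in advance, since a gene was tested only where its mean in a tissue reached this limit. Hepatocyte, lymphocyte and platelet marker lists averaged between 6.43 and 7.84 on every LSEC array, near that limit. The first principal component of the 6 arrays held 43.3% of the variance and separated the genotypes, with controls between -20.2 and -16.4 and Cre+ samples between 17.2 and 19.0. The second held 21.0% and set control replicate 3 and Cre+ replicate 1 (-17.9 and -18.0) apart from the other 4 samples (5.8 to 10.3). Those 2 samples also had the highest mean level of 16 macrophage markers, 10.13 and 9.94, against 9.10 and 9.11 in the other controls and 8.85 and 8.59 in the other Cre+ samples. Cholangiocyte markers varied within both groups, with means of 7.85, 6.82 and 7.72 in control and 6.83, 8.29 and 6.98 in Cre+ samples. As RNA was taken from whole samples, fewer cells of a type and less RNA per cell cannot be told apart anywhere below. The difference between 3' and 5' probe sets of Actb ran from 0.06 to 0.58 on the log2 scale and was largest in control replicate 1; that of Gapdh ran from -0.27 to -0.09.

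**Figure D1:**
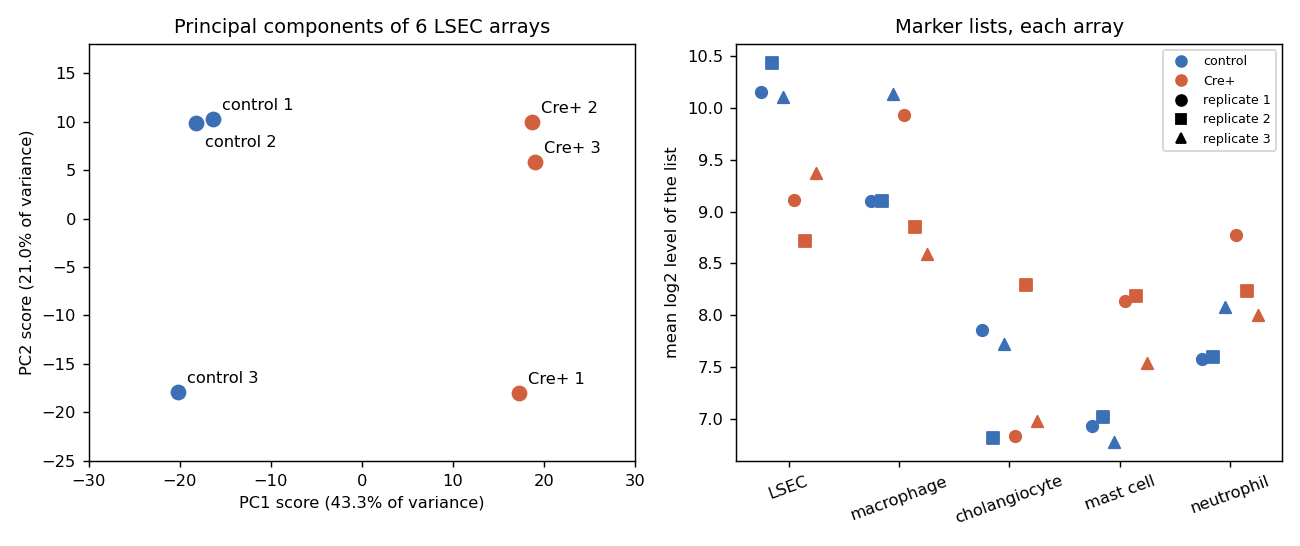
Left, scores of the 6 LSEC arrays on the first and second principal component of the genes tested; right, mean log2 level of 5 marker lists on each array. Genotype separates along the horizontal axis, control replicate 3 and Cre+ replicate 1 share the low end of the vertical axis at -17.9 and -18.0 and the highest macrophage means, and the LSEC marker means of controls (10.10 to 10.43) lie above those of Cre+ samples (8.71 to 9.37).

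Most of the profile moved little. The log2 fold change, Cre+ minus control, had a median of 0.01 over the 13035 genes, its middle 50% lay between -0.13 and 0.13, and 51.2% of genes had a positive value. The lower end was longer: the 1st percentile was -1.06 and the 99th 0.79. In limma, 790 genes (6.06%) passed an adjusted p of 0.05 and are called changed here, 366 higher (2.81%) and 424 lower (3.25%) in Cre+ LSEC. Control and Cre+ arrays did not overlap for 3085 genes (23.7%), and for 365 of the 366 rises and 423 of the 424 falls. Called falls had a larger median than called rises. The median called fall was 1.61-fold and the median called rise 1.48-fold, 195 of the 366 rises and 162 of the 424 falls were under 1.5-fold, and the smallest called change was 1.20-fold in both directions. Beyond 2-fold stood 68 called rises and 131 called falls (199 genes, 1.53%), beyond 4-fold 15 and 21, and beyond 8-fold 3 and 6. In 38 of the 68 rises and 95 of the 131 falls beyond 2-fold both genotypes were at or above the limit of 6.87; for the others the size is uncertain, since the lower level lies in the dim range of the array. Without control replicate 2 the count of called genes was 493, and without both control replicate 3 and Cre+ replicate 1 it was 472, of which 386 were among the 790.

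The share of called genes was highest among bright genes. Split into 5 equal bins of 2607 genes by mean level in LSEC, the lowest bin had 5.14% called, the next bins 4.18%, 5.10% and 7.21%, and the highest 8.67%. Called falls took 2.38% of the lowest bin and 5.22% of the highest, and called rises 2.76% and 3.45%. Other probe sets of the same genes, which played no part in the calls, gave a check on direction. At or above the limit, 276 of 304 other probe sets of called rises (90.8%) and 271 of 296 of called falls (91.6%) had the same sign as the chosen probe set. Genes that were not called shared a sign in 66.0% of 7397 such probe sets. Below the limit the shares were 69.9% and 63.8% for called rises and falls. Of the genes named below, the other probe sets at or above the limit had the opposite sign for 1 probe set each of Ern1, Pnpla2, Ttr, Nr2f2, Ptprs and Itga8.

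**Figure D2:**
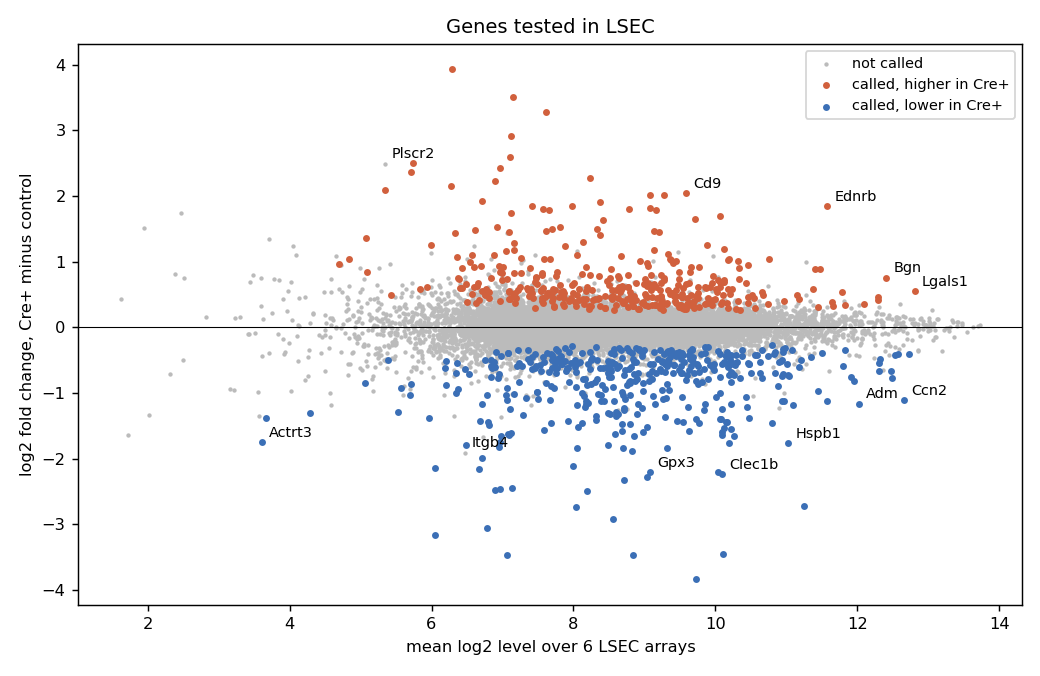
Log2 fold change (Cre+ minus control) against the mean log2 level over the 6 LSEC arrays for the 13035 genes tested, with the 366 called rises and 424 called falls coloured. Called genes lie at all levels, falls reach lower than rises do on the bright side, and the dim end on the left holds large differences that were not called, such as that of Plscr2.

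The floxed genes come first, as a check of the genotype labels. Foxo1 stood at 8.97, 8.89 and 8.87 in control and 7.84, 8.19 and 7.90 in Cre+ samples on its brightest probe set, and at 8.58, 8.48 and 8.0 against 4.36, 4.58 and 5.44 on a second. Foxo4 stood at 7.37, 7.06 and 6.94 against 4.69, 5.38 and 4.86, and Foxo3 at 9.08, 9.13 and 9.17 against 8.57, 8.47 and 8.74. Every Cre+ sample was lower than every control for each gene on these probe sets. On 2 dimmer probe sets this was not so: a second of Foxo4 had overlapping groups, at 6.58, 6.46 and 6.70 against 6.59, 6.36 and 6.49, and a further one of Foxo1 ran from 0 to 5.40 in control and from 4.09 to 4.65 in Cre+ samples. On the probe set tested for each gene, the fall was 1.91-fold for Foxo1 (adjusted p = 0.000984) and 4.42-fold for Foxo4 (adjusted p = 0.000136). It was smallest for Foxo3, 1.44-fold (adjusted p = 0.00309). The log2 fold change of Foxo1 was -0.93 on that probe set and -2.10 and -3.56 on others, against -2.15 for Foxo4. The order of Foxo1 and Foxo4 thus depended on the probe set. The probe sets are not placed relative to the deleted exons in the files, so a small difference does not measure recombination.

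Behind the 12 largest changes in each direction came a second tier of genes, the 24 rises of 2.76-fold to 4.12-fold and the 24 falls of 3.15-fold to 5.44-fold, ranked among called genes whose groups did not overlap. Since rank was set by the size of the change, these values describe the genes and are no separate evidence. Several of the rises encode proteins of the endothelial surface and of vascular tone. Cd9, a tetraspanin of continuous endothelium, stood at 8.73, 8.47 and 8.5 in control samples and 10.94, 10.41 and 10.47 in Cre+ LSEC. The difference was 4.12-fold (log2 2.04, SE 0.14, adjusted p = 1.3e-05), and the lowest Cre+ sample lay well above the highest control. Mcam, which encodes the adhesion molecule CD146, went from 8.45, 8.35 and 8.01 to 10.72, 10.03 and 10.10 (4.04-fold, adjusted p = 0.000192). Ednrb, the endothelin B receptor gene, was bright in controls at 10.61, 10.91 and 10.45 and brighter in Cre+ samples at 12.43, 12.37 and 12.68 (3.59-fold, adjusted p = 9.64e-05). Both groups of Ednrb were tight, with SDs of 0.23 and 0.16 (n = 3 each). Plat, the tissue plasminogen activator gene, was even in controls (7.77, 7.87 and 8.01) and had 1 high Cre+ sample (9.34, 10.5 and 9.19). Slco2a1, a prostaglandin transporter gene, stood at 9.26, 8.90 and 9.5 against 10.40, 10.96 and 11.36. Nppb, the B-type natriuretic peptide gene, stood at 7.73, 7.19 and 7.84 against 8.58, 9.64 and 9.04. These 3 rose 3.47-fold, 3.22-fold and 2.83-fold (adjusted p = 0.00257, 0.00113 and 0.00379).

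Secreted factors and matrix genes were a further group of the rises. Bmper encodes a secreted protein that binds BMP ligands; its levels were 8.06, 8.53 and 7.91 in control and 9.93, 9.89 and 10.15 in Cre+ samples, 3.54-fold apart (adjusted p = 3.47e-05). Il1a, an alarmin cytokine gene, reached 8.46, 8.56 and 8.38 in Cre+ samples from 6.31, 6.55 and 7.15 in controls, so its Cre+ values were close together and its control values were not. Vcan, which encodes the proteoglycan versican, stood at 6.47, 6.16 and 6.11 against 7.34, 9.0 and 7.63, with Cre+ replicate 2 far above the other Cre+ samples. Col13a1, a transmembrane collagen gene, rose 2.82-fold, Igfbp3, an insulin-like growth factor carrier gene, 2.78-fold and Lcn2, a siderophore-binding lipocalin gene, 3.15-fold (adjusted p = 0.00650, 0.0263 and 0.00629). Igfbp3 was called only with control replicate 1, Cre+ replicate 1 and Cre+ replicate 3 all kept. A glutathione transferase gene and a quinone reductase gene also rose. Gsta3, the former, went from 7.32, 7.20 and 7.75 to 8.74, 9.18 and 10.05 (3.74-fold), and Nqo1, the latter, from 6.17, 5.56 and 5.88 to 7.28, 7.03 and 7.74 (2.79-fold, adjusted p = 0.00131). Over the 19 glutathione transferase genes tested, 2 were called higher, Gsta3 and Gsta4, and 15 had positive values, with a median of 0.18 against 0.01 over all genes. Among 31 cytochrome P450 genes 1 rose and 2 fell, with a median of -0.07, and of 3 flavin monooxygenase genes Fmo1 fell. Glutathione transferase genes had 10.5% called and cytochrome P450 genes 9.68%, against 6.06% of all genes.

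Intracellular proteins made up much of the rest of these rises. Prkar2b, a regulatory subunit gene of protein kinase A, stood at 7.97, 8.46 and 8.37 against 9.85, 9.81 and 10.48 (3.44-fold, adjusted p = 0.000603). Serpinb6b, an intracellular protease inhibitor gene, had a small spread in controls, at 8.39, 8.47 and 8.36, and stood at 9.83, 10.10 and 9.68 in Cre+ samples (2.76-fold, adjusted p = 0.000377). Tedc2, which encodes a tubulin-associated centriole protein, went from 6.77, 7.22 and 7.15 to 8.66, 8.0 and 9.06. Bhlhb9 (3.80-fold), Tmem119 (3.61-fold), Nrep (2.89-fold), Tcim (3.10-fold) and Gpm6a, a neuronal membrane glycoprotein gene (3.46-fold), completed the tier. Gpm6a had the least room between groups, with a highest control of 7.58 and a lowest Cre+ sample of 7.91, and its call ended without any 1 of control replicates 2 and 3 and Cre+ replicates 1 and 3; that of Tcim ended without control replicate 3 or Cre+ replicates 2 or 3. Of the 24 rises, 21 kept the call whichever single LSEC array was left out. In 2 genes the difference was not particular to LSEC: Cap1, which encodes a cyclase-associated actin regulator, went from 7.47, 8.17 and 8.59 to 10.71, 10.45 and 9.10, and Gm34303, a predicted gene, from 7.08, 7.10 and 7.0 to 9.03, 8.89 and 8.79, the smallest error of the tier (SE 0.0782, adjusted p = 8.45e-07). Cap1 was also called higher in lung endothelial cells (log2 3.37, adjusted p = 0.0234), and Gm34303 in both lung (1.08, adjusted p = 0.00115) and thymus (3.28, adjusted p = 1.39e-08). The lower level lay under 6.87 for Bhlhb9, Tmem119, Il1a, Gpm6a, Vcan, Nrep and Nqo1, so the size of these rises is uncertain; Igfbp3 stood at the limit.

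Among the 24 falls, growth arrest genes were tight within both groups. Gadd45a, a gene of growth arrest after DNA damage, stood at 9.96, 9.89 and 9.79 in control samples and 7.74, 7.30 and 7.61 in Cre+ LSEC (5.02-fold, adjusted p = 6.88e-06). Cdkn2b, which encodes the cyclin-dependent kinase inhibitor p15, went from 9.02, 9.07 and 8.79 to 7.0, 7.17 and 7.21 (3.57-fold, adjusted p = 1.59e-05). The gap between the groups was over 1.5 log2 units for each of these genes. Rerg, a Ras-like growth inhibitor gene, was more variable, at 9.54, 9.58 and 9.04 against 7.65, 6.73 and 8.40 (3.47-fold, adjusted p = 0.00660). Depp1, an autophagy regulator gene, stood at 11.07, 10.92 and 11.26 against 9.37, 9.66 and 9.26 (3.15-fold, adjusted p = 0.000832). Egr1, an immediate early transcription factor gene, fell 3.40-fold and Hspb1, a small heat shock protein gene, 3.39-fold, from 11.66, 11.67 and 12.39 to 9.87, 10.82 and 9.75.

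Surface receptors and secreted signals of LSEC formed a further group of these falls. Clec1b, a C-type lectin receptor gene, stood at 11.21, 11.43 and 10.996 against 9.08, 8.34 and 9.49, with Cre+ replicate 2 lowest (4.73-fold, adjusted p = 0.000508). Mmd, which encodes a membrane protein of the progestin and adipoQ receptor family, had the smallest adjusted p of the tier among falls, 2.09e-06, from 10.25, 10.25 and 10.04 to 7.87, 7.77 and 8.08 (4.83-fold). Fcgr2b, the inhibitory Fc receptor gene through which LSEC take up immune complexes, went from 10.90, 11.65 and 10.86 to 8.84, 8.85 and 9.11 (4.61-fold, adjusted p = 7.43e-05). The signals fell with the receptors. Bmp4 stood at 10.10, 9.78 and 9.43 against 8.17, 7.71 and 7.78 (3.69-fold, adjusted p = 0.000200). Rspo3, a Wnt agonist gene of hepatocyte zonation, stood at 9.45, 8.84 and 8.86 against 6.85, 6.58 and 7.36 (4.34-fold). The groups of Rspo3 were far apart, yet its adjusted p was 0.0207, since the model takes 1 spread per gene over all 3 tissues, and the call ended without control replicate 1 or Cre+ replicates 1 or 2. Il16, a T cell chemoattractant gene, fell 4.47-fold from 7.73, 8.02 and 7.50 to 5.92, 5.69 and 5.16, and Gpx3, the secreted glutathione peroxidase gene, 4.63-fold from 9.66, 10.55 and 10.36 to 8.48, 7.72 and 7.72.

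Matrix, enzyme and regulator genes accounted for the other falls of the tier. Nid2, a basement membrane nidogen gene, went from 7.97, 7.86 and 7.73 to 5.84, 6.07 and 6.18 (3.54-fold, adjusted p = 9.43e-06), and Mmp12, a metalloelastase gene, from 10.04, 9.29 and 9.73 to 8.80, 7.89 and 7.39 (3.16-fold). Arg2, the mitochondrial arginase gene, fell 3.98-fold and Atp6v0d2, a vacuolar proton pump subunit gene, 3.17-fold (adjusted p = 0.000944 and 0.00664). Asb4, an ankyrin repeat and SOCS box gene of vascular development, fell 5.44-fold, Hoxb5, a homeobox gene, 3.45-fold and Arhgap22, a Rac regulator gene, 3.37-fold. In Arhgap22 the highest Cre+ sample, 7.24, came close to the lowest control, 7.49, and the call ended without control replicates 1 or 3 or Cre+ replicates 1 or 3. Trmt1l and Tmem140 fell 3.58-fold and 3.59-fold (adjusted p = 7.43e-05 and 1.59e-05). Actrt3, 3.37-fold lower, was dim on every array, at most 5.56, and lost its call without Cre+ replicate 1 or 2. Of the 24 falls, 21 kept the call whichever single LSEC array was left out. The lower level lay under 6.87 for Asb4, Il16, Foxo4, Arg2, Nid2, Hoxb5, Arhgap22, Actrt3 and Atp6v0d2, so the size of these falls is uncertain.

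**Figure D3:**
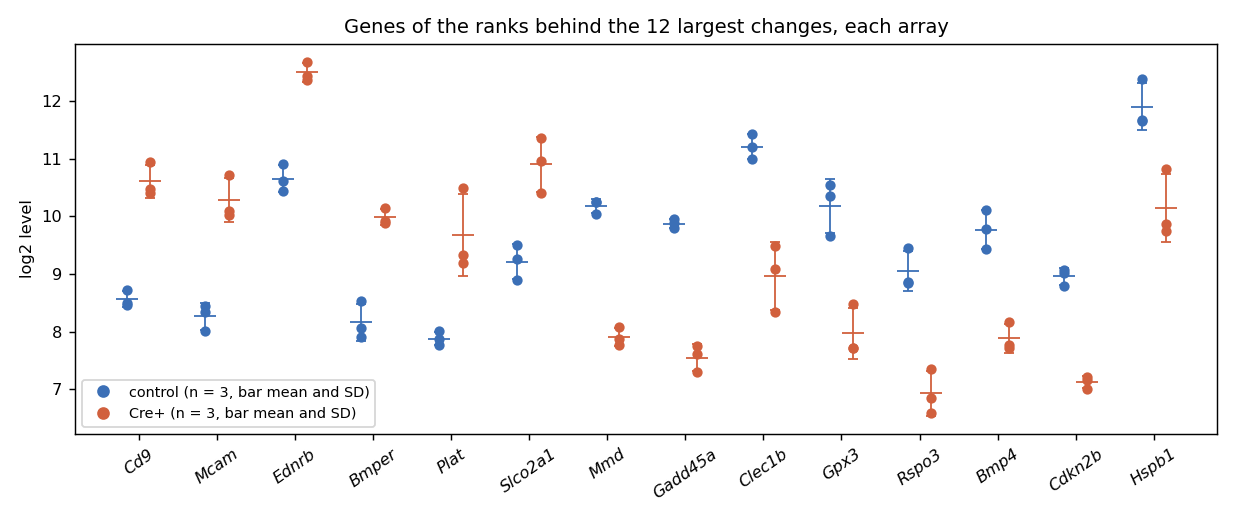
Log2 level of 14 genes of the second tier on each LSEC array, with the mean and SD of 3 control and 3 Cre+ samples. Control and Cre+ points do not overlap for any of them, which was a condition of the tier. Cd9 and Ednrb rose with little spread, Plat has 1 high Cre+ sample at 10.50, and Gadd45a, Mmd and Cdkn2b fell with little spread.

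Promoters of the called genes were searched for the element that FoxO proteins bind, since the floxed genes encode these proteins. RefSeq promoter windows, 250 bases before to 50 bases after a start on GRCm38.p6, were at hand for 10420 of the 13035 genes, 328 of the 424 called falls and 288 of the 366 called rises. The letters GTAAACA stood on either strand in a window of 21 called falls (6.4%) and 11 called rises (3.82%), against 3.23% of all tested genes. The related core CAAAACA, which can share letters with GTAAACA, was in 33 falls (10.1%) and 16 rises (5.56%), against 5.21%. The E box CACGTG, which other factors bind, was in 34 falls (10.4%) and 28 rises (9.72%), against 11.3%. Median base composition hardly differed, at 61.0% G and C in called genes and 60.3% overall. Windows of 4 called falls and 2 called rises that hold GTAAACA are shown. They were chosen by size of change, but not from every chromosome, so called genes with the element and larger changes may be missing. The element is in capitals as GTAAACA or, where it lies on the other strand, TGTTTAC. The windows are written 5' to 3' along the gene's strand.
Tmem140 (chr6:34862896-34863195, plus strand, called lower): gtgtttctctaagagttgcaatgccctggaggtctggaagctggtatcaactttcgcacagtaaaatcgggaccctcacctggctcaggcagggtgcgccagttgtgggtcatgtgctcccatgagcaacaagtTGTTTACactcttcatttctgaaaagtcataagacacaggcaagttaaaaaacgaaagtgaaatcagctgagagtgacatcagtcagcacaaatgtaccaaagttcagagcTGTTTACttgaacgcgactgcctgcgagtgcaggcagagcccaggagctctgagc
Gbp3 (chr3:142559794-142560093, plus strand, called lower): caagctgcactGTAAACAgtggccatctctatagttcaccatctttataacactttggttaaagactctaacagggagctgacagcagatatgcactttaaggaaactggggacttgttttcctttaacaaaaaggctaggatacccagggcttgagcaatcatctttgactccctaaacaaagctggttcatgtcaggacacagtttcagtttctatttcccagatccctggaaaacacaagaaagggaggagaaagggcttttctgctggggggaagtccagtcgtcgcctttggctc
Gfpt2 (chr11:49793905-49794204, plus strand, called lower): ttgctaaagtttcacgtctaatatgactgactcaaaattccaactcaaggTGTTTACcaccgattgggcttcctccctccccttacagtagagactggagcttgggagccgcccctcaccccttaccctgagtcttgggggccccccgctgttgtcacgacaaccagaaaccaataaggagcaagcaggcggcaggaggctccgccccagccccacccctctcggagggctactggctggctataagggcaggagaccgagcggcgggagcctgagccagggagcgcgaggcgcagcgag
Slc7a11 (chr3:50443564-50443863, minus strand, called lower): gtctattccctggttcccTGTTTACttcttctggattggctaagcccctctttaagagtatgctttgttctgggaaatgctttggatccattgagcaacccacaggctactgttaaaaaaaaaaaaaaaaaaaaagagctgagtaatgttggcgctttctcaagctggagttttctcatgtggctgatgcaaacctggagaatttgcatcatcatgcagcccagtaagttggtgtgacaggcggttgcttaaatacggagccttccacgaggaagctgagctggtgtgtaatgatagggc
Hgf (chr5:16553245-16553544, plus strand, called higher): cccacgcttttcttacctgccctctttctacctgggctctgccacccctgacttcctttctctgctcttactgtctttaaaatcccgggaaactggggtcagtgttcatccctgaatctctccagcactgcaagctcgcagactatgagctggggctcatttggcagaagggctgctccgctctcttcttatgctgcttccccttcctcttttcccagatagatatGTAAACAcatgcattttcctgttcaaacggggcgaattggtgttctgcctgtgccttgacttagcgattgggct
Tmem14a (chr1:21218325-21218624, plus strand, called higher): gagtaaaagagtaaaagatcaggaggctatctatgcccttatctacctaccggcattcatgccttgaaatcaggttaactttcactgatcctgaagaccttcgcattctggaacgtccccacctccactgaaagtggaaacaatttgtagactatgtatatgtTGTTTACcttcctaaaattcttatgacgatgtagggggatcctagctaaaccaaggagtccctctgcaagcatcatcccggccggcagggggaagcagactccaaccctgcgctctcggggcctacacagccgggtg
Tmem140 was the member with 2 copies of the element. Its levels were 10.38, 10.23 and 10.12 in control samples and 8.31, 8.18 and 8.72 in Cre+ LSEC. Gbp3, an interferon-induced GTPase gene, stood at 7.85, 7.47 and 7.33 against 6.28, 6.18 and 5.71 (2.81-fold), and Gfpt2, a hexosamine pathway enzyme gene, fell 2.75-fold (adjusted p = 0.000790). Slc7a11, the cystine transporter gene, stood at 7.18, 7.27 and 7.45 against 5.89, 6.09 and 6.41 (2.25-fold, adjusted p = 0.00195). Hgf, which encodes the growth factor that stimulates hepatocytes, rose from 7.05, 7.29 and 7.10 to 8.74, 7.66 and 8.15 (2.06-fold, adjusted p = 0.0123), and Tmem14a rose 1.78-fold. A match of letters is a description of the window and not a binding site.

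Very bright genes held called changes of modest size. Of the 10 brightest called genes, 8 were lower and 2 higher in Cre+ LSEC. Ccn2, which encodes connective tissue growth factor, had the largest of these changes, from 13.17, 13.35 and 13.13 to 11.88, 12.21 and 12.22 (2.17-fold, adjusted p = 0.00110). Ctsl, the cathepsin L gene, fell 1.71-fold (adjusted p = 0.00356) and Itm2b, an integral membrane protein gene, 1.58-fold (adjusted p = 0.0359). P4hb, a protein disulfide isomerase gene, stood at 12.61, 12.51 and 12.57 against 12.21, 12.03 and 11.99 (1.40-fold, adjusted p = 0.00349). Degs1, a ceramide synthesis gene, H2-K1, a class I histocompatibility gene, Fkbp1a, a prolyl isomerase gene, and Tuba1a, a tubulin gene, fell between 1.32-fold and 1.47-fold. The rises were of Bgn, the biglycan gene, from 11.97, 11.79 and 12.32 to 12.82, 12.62 and 12.91 (1.69-fold, adjusted p = 0.00506), and of Lgals1, the galectin 1 gene, from 12.40, 12.57 and 12.64 to 13.17, 12.88 and 13.20 (1.46-fold, adjusted p = 0.0343). All 10 had groups without overlap, as had 365 of the 366 called rises and 423 of the 424 called falls. Calls ended for Lgals1 without control replicates 1, 2 or 3 or Cre+ replicates 1 or 3 (adjusted p up to 0.119), Itm2b without control replicates 1 or 3 or Cre+ replicates 2 or 3 (adjusted p up to 0.116), H2-K1 without control replicates 1, 2 or 3 or Cre+ replicates 1 or 3 (adjusted p up to 0.162), Tuba1a without control replicates 1 or 2 or Cre+ replicates 1 or 2 (adjusted p up to 0.118) and Degs1 whichever array was left out (adjusted p up to 0.140).

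The opposite end holds genes with the largest spread within a genotype, none of which was called. Itgb4, an integrin gene of epithelial adhesion, was even in controls (7.35, 7.60 and 7.31) and ran over 5.49, 8.11 and 2.93 in Cre+ samples. Plscr2, a phospholipid scramblase gene, had a control replicate 2 at 1.16 beside 5.59 and 5.52, and Cre+ samples between 6.03 and 7.14. Pamr1 had a low control replicate 1, at 3.91 beside 6.74 and 7.28. Hbb-b2, H2-Q2, Sh2d1a, Trav6-3 and Arhgef39 lay below the limit of 6.87 on every LSEC array, with at least 1 array at or near the floor of 0.

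Most LSEC markers fell. Of 20 tested, 13 were lower in Cre+ LSEC (65.0%, against 3.25% of all genes) and 0 higher, with a median of -1.16. The array means were 10.16, 10.43 and 10.10 in control and 9.11, 8.71 and 9.37 in Cre+ samples. Stab1 and Stab2, the stabilin scavenger receptor genes, fell as well: Stab2 went from 11.34, 12.12 and 11.61 to 10.63, 9.85 and 11.05 (2.27-fold, adjusted p = 0.0435). Cre+ replicate 2 had the lowest value of the 6 samples for both of them. Clec4g, a lectin gene, stood at 9.11, 9.66 and 9.43 against 7.77, 7.58 and 7.98 (3.08-fold, adjusted p = 9.5e-05), with every Cre+ sample more than 1 log2 unit below every control. The count of called markers ran from 9 to 14 with 1 array left out and was 9 without both control replicate 3 and Cre+ replicate 1. It was 9 with only the 6 LSEC arrays and 7 with the replicate number as a block. Pan-endothelial markers showed 4 falls and 0 rises among 20, of Cldn5, Robo4, Sox18 and Pecam1, with a median of -0.18. Cldn5, the tight junction claudin gene of endothelium, stood at 8.71, 8.95 and 8.26 against 7.55, 7.31 and 6.80 (2.68-fold), and Robo4, a receptor gene that stabilises vessels, at 10.5, 11.03 and 10.61 against 9.68, 9.13 and 9.58 (2.38-fold). Calls ended for Flt4 whichever array was left out (adjusted p up to 0.152), F8 without control replicate 2 (adjusted p up to 0.0532) and Pecam1 without control replicates 2 or 3 or Cre+ replicates 2 or 3 (adjusted p up to 0.152).

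Genes of other vascular beds moved in both directions. In this and the following comparisons the lower level lay under 6.87, and the size is uncertain, for Sema3g, Foxc2, Lrg1, Vwf, Gsta4, Cdc6, Rfc3, Ankrd37, Slc7a11, Slc15a2, Gjb5, Gjc1, Zfpm2, Gbp3, Tmem14a, Cxcl10, Il6, Il13ra2, Tpsab1, Cpa3, Hdc, S100a8, H2-Ab1, Pdgfra, Fmo1, Sema3d and Magea4. Continuous capillary genes had 4 rises and 0 falls among 26 (15.4%, against 2.81% of all genes called higher), with a median of 0.10. Besides Cd9 these were Nos3, the endothelial nitric oxide synthase gene, from 8.69, 8.48 and 8.5 to 9.40, 10.29 and 9.5, Cavin2, a caveolar coat gene, from 11.13, 11.05 and 10.93 to 12.09, 11.72 and 11.95, and Lamc1, a laminin gene of basement membrane, from 9.91, 9.94 and 9.84 to 10.5, 10.32 and 10.59. They rose 2.26-fold, 1.84-fold and 1.49-fold (adjusted p = 0.00506, 0.000969 and 0.00170). Caveola and fenestra genes had 3 rises and 0 falls among 15, of Nos3, Cavin2 and Cavin3 (1.43-fold). The call ended for Cavin3 without control replicates 1, 2 or 3 or Cre+ replicates 1 or 2 (adjusted p up to 0.109).

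Venous genes had 5 rises and 4 falls among 14 (64.3% called, against 6.06% of all genes) and a median of 0.23, which was 0.08 without control replicate 2. Vwf and Lrg1 rose, as did Csrp2, a LIM domain gene (8.80, 8.96 and 8.78 against 10.12, 9.42 and 10.13), Bgn, and Nr2f2, which encodes the venous fate factor COUP-TFII (8.92, 8.86 and 8.62 against 9.32, 9.28 and 9.18, 1.38-fold, adjusted p = 0.0347). The falls were of Vcam1 (10.56, 10.43 and 10.61 against 9.91, 9.25 and 9.26), Ackr1 (8.75, 8.67 and 8.61 against 7.48, 8.09 and 7.85), Icam1 (1.47-fold) and Nrp2 (1.34-fold). Arterial genes had 2 rises, of the Notch ligand gene Jag1 (9.87, 9.74 and 9.85 against 10.70, 10.97 and 10.82) and of Sema3g, and 2 falls, of the chemokine receptor gene Cxcr4 and of Depp1, among 21 (19.0% called), with a median of 0.07. Among 12 lymphatic genes (33.3% called), Foxc2 and the integrin gene Itga9 rose and Lyve1 and Flt4 fell. Coagulation and fibrinolysis genes gave 2 rises, of Vwf and Plat, and 3 falls among 17 (29.4% called). The falls were of F8, the factor VIII gene made mainly by LSEC (8.99, 9.55 and 9.28 against 8.14, 7.30 and 8.31, 2.55-fold), F2r, the thrombin receptor gene (12.67, 12.86 and 12.38 against 12.11, 11.61 and 12.22), and Pros1, the protein S gene (1.47-fold). So the 2 partner genes of the factor VIII complex went opposite ways, Vwf from 5.91, 5.80 and 6.21 to 9.84, 8.59 and 9.31 and F8 2.55-fold down. Calls ended for Nr2f2 without control replicates 2 or 3 or Cre+ replicates 1, 2 or 3 (adjusted p up to 0.114), Sema3g without control replicates 2 or 3 or Cre+ replicates 1 or 2 (adjusted p up to 0.137), Cxcr4 without control replicate 3 or Cre+ replicate 3 (adjusted p up to 0.0629) and F2r without control replicates 1 or 2 or Cre+ replicates 1 or 2 (adjusted p up to 0.126).

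DNA replication genes rose in larger number than mitosis genes. Of 53 replication and S phase genes 18 were called higher (34.0%, against 2.81% of all genes) and 0 lower, 44 had positive values, and the median was 0.22. Rises were small, from 1.23-fold to 1.87-fold. Cdc6, which loads the replicative helicase, went from 5.70, 5.94 and 6.29 to 6.95, 6.63 and 7.06, and Rfc3, a clamp loader subunit gene, from 6.71, 6.63 and 6.90 to 7.54, 7.58 and 7.61. Among the helicase subunit genes, Mcm5 stood at 8.68, 8.33 and 9.09 against 9.47, 9.55 and 9.44, Mcm2 at 8.87, 8.89 and 9.0 against 9.60, 9.60 and 9.70, and Mcm4 at 8.85, 8.83 and 8.91 against 9.53, 9.45 and 9.43. These 3 rose 1.73-fold, 1.64-fold and 1.52-fold (adjusted p = 0.0130, 0.000969 and 0.000766). Uhrf1, a maintenance methylation gene (1.68-fold), Mcm6, Mcm3 and Mcm7 of the helicase (1.49-fold, 1.44-fold and 1.42-fold), Lig1, the replicative ligase gene (1.52-fold), Pola1, Prim2 and Pole2 of the polymerases, Rpa1, Rpa2 and Rpa3 of the single-strand binding complex, Rfc4, and Orc6 of the origin recognition complex were the others. By contrast, 1 of 46 mitosis genes was called, the condensin gene Smc2 (8.26, 8.04 and 8.32 against 8.83, 8.53 and 8.70, 1.39-fold, adjusted p = 0.0265), and the median of that list was 0.03 (-0.08 without control replicate 2). The S phase list averaged 8.21, 8.11 and 8.27 on control arrays and 8.51, 8.45 and 8.46 on Cre+ arrays, and the mitosis list 7.45, 7.19 and 7.66 against 7.57, 7.40 and 7.40. The difference between these lists was not tested. Calls ended for Cdc6 without control replicates 1 or 2 or Cre+ replicates 1 or 3 (adjusted p up to 0.0867), Uhrf1 without control replicates 1 or 2 or Cre+ replicates 1 or 3 (adjusted p up to 0.152) and Smc2 without control replicates 1 or 2 or Cre+ replicates 1 or 3 (adjusted p up to 0.0955). The S phase count was 10 without control replicate 2, 8 without Cre+ replicate 1 and 12 without Cre+ replicate 3. Without both control replicate 3 and Cre+ replicate 1 it was 10. With only the 6 LSEC arrays the count was 8, and with the replicate number as a block it was 6. The S phase median stayed between 0.21 and 0.28 in the leave-outs of 1 array.

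**Figure D4:**
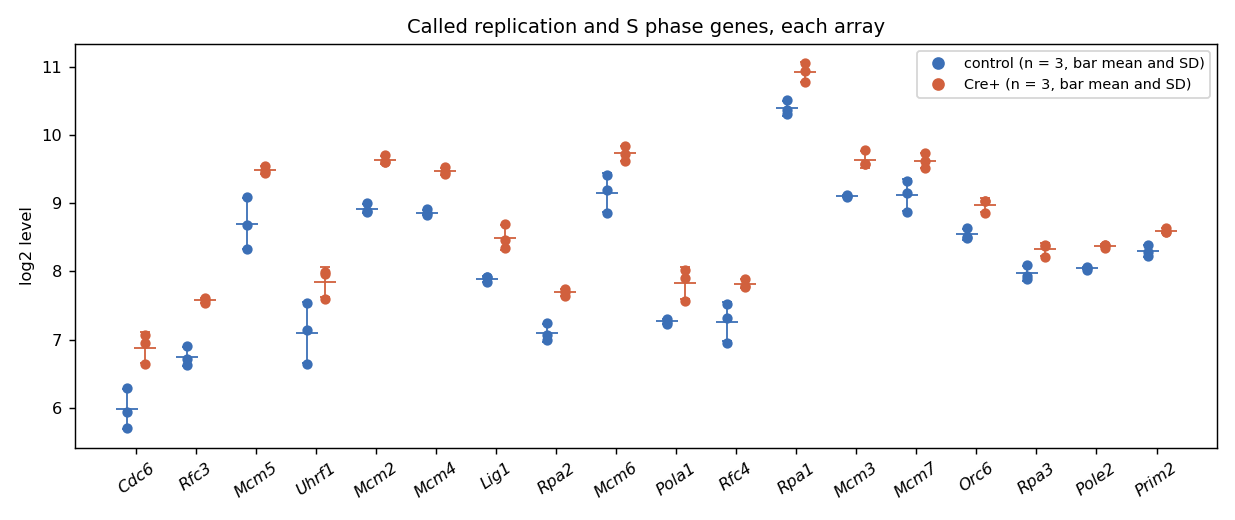
Log2 level of the 18 called replication and S phase genes on each LSEC array, with the mean and SD of 3 control and 3 Cre+ samples. The genes are ordered by their change, from Cdc6 (1.87-fold) to Prim2 (1.23-fold), and the Cre+ points of each gene lie above its control points.

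Genes that supply nucleotides and energy had mostly small positive values. Nucleotide synthesis genes had 3 rises and 0 falls among 32 (9.38%, against 2.81% of all genes), of the folate enzyme gene Mthfd1 (8.40, 8.37 and 8.17 against 8.86, 8.99 and 8.77), the purine synthesis gene Atic (9.58, 9.42 and 9.46 against 9.87, 10.11 and 9.93) and the cytidine triphosphate synthase gene Ctps (1.38-fold), with a median of 0.16 and 27 positive values. Citric acid cycle genes had 22 positive values among 24 and a median of 0.16, and 2 were called higher: Mdh2, malate dehydrogenase (11.35, 11.19 and 11.33 against 11.64, 11.65 and 11.53, 1.24-fold), and Pcx, pyruvate carboxylase (1.44-fold). Respiratory chain and ATP synthase genes had 71 positive values among 82, a median of 0.14 and 2 called rises, of Cox7a2 (11.97, 11.996 and 11.79 against 12.27, 12.20 and 12.35) and Atp5g1 (1.29-fold). Mitochondrial ribosomal protein genes had 67 positive values among 76, a median of 0.12 and 2 called rises, of Mrpl17 (1.29-fold) and Mrpl16 (1.21-fold). Mrpl17 turned to -0.28 on the log2 scale with the mean of all its probe sets. Positive values made up 51.2% of all genes tested. Members of a list share the same arrays, so their signs are not independent counts. Array means of the mitochondrial ribosomal list overlapped, at 9.29, 9.17 and 9.17 in control and 9.27, 9.43 and 9.30 in Cre+ samples. Those of the respiratory list did not (10.24, 10.23 and 10.16 against 10.33, 10.34 and 10.34). Nor did those of the citric acid cycle list (9.79, 9.74 and 9.76 against 9.93, 9.92 and 9.89). Few members of these lists passed. Calls ended for Ctps without control replicates 2 or 3 or Cre+ replicates 1, 2 or 3 (adjusted p up to 0.107), Mdh2 without control replicates 2 or 3 or Cre+ replicates 1 or 2 (adjusted p up to 0.103), Pcx without control replicates 2 or 3 or Cre+ replicates 1, 2 or 3 (adjusted p up to 0.128), Cox7a2 without control replicate 3 or Cre+ replicate 3 (adjusted p up to 0.0644), Atp5g1 whichever array was left out (adjusted p up to 0.104), Mrpl17 without control replicates 2 or 3 or Cre+ replicates 2 or 3 (adjusted p up to 0.104) and Mrpl16 whichever array was left out (adjusted p up to 0.0824). Cytosolic ribosomal protein genes, which are coregulated and bright, had a median of 0.06 with 0 of 46 called, and proteasome genes one of -0.03 with 0 of 45 called; in limma, 0 of these 91 genes passed, and 7 had an unadjusted p under 0.05. Ribosome biogenesis genes had a median of 0.09, with 0 of 53 called and 3 at an unadjusted p under 0.05.

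Lists of fuel metabolism had between 9.09% and 13.3% of their members called, against 6.06% of all genes and 8.62% of the genes in any list or family. Pdk4, a pyruvate dehydrogenase kinase gene, was even within both groups at 9.97, 10.11 and 9.96 against 6.99, 6.96 and 7.34. Among 29 fatty acid oxidation genes it was the fall beside 2 rises, of Cpt1a, the carnitine transferase gene that admits fatty acids (9.74, 9.66 and 9.76 against 10.40, 10.18 and 10.35, 1.5-fold, adjusted p = 0.00825), and Hadh (1.35-fold, adjusted p = 0.0416). Lipid uptake genes had 3 falls among 23: Lpl, lipoprotein lipase (10.70, 10.40 and 11.23 against 10.01, 9.11 and 9.02), its inhibitor gene Angptl4 (10.09, 10.34 and 9.98 against 9.24, 9.68 and 9.05), and the lipase gene Pnpla2 (1.45-fold). Lipid synthesis genes had 3 rises, of the desaturase gene Scd2 (9.44, 9.78 and 9.53 against 10.20, 10.37 and 10.5), Fasn (1.42-fold) and Acaca (1.251-fold), and 1 fall, of the sterol sensor gene Insig1 (1.66-fold), among 30. Glycolysis genes had a median of -0.12 (-0.07 without control replicate 3) and 2 falls among 22, of the glucose transporter gene Slc2a1 (10.66, 10.62 and 10.97 against 9.98, 10.41 and 10.20) and of Pfkfb3, an activator of glycolysis (9.35, 9.39 and 9.79 against 8.72, 8.82 and 8.90, 1.62-fold, adjusted p = 0.00320). Calls ended for Hadh without control replicates 1, 2 or 3 or Cre+ replicates 1 or 3 (adjusted p up to 0.141), Fasn whichever array was left out (adjusted p up to 0.119), Acaca without control replicates 2 or 3 or Cre+ replicates 1, 2 or 3 (adjusted p up to 0.129), Insig1 without control replicates 1 or 2 or Cre+ replicates 1 or 2 (adjusted p up to 0.0826) and Slc2a1 without control replicate 3 or Cre+ replicates 1 or 3 (adjusted p up to 0.0554).

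Hypoxia genes held 8 falls and 1 rise among 25 (36% called, against 6.06% of all genes). Their median was -0.21, and was -0.35 without Cre+ replicate 2 and -0.14 without both control replicate 3 and Cre+ replicate 1. Adm, the vasodilator peptide adrenomedullin gene, was bright and tight at 12.56, 12.72 and 12.53 in control samples and 11.45, 11.41 and 11.46 in Cre+ LSEC (2.24-fold, adjusted p = 7.43e-05). Ndrg1, a stress-induced gene, stood at 10.002, 10.31 and 10.36 against 8.95, 9.01 and 9.05 (2.33-fold), and Ankrd37 at 7.64, 7.27 and 7.77 against 6.55, 6.46 and 6.59 (2.04-fold). Pfkfb3, Mxi1 (1.56-fold), Slc2a1, P4hb and Kdm3a (1.32-fold) were the other falls. The rise was of Hif1a itself, the gene of the oxygen-regulated factor that drives many of them, from 11.56, 11.58 and 11.43 to 12.06, 12.005 and 12.11 (1.45-fold, adjusted p = 0.0162). The called count ran from 6 to 9 with 1 array left out and was 5 without both control replicate 3 and Cre+ replicate 1. Calls ended for Slc2a1 without control replicate 3 or Cre+ replicates 1 or 3 (adjusted p up to 0.0554) and Kdm3a without control replicates 1 or 3 or Cre+ replicate 1 (adjusted p up to 0.0665).

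Target genes of p53 held 5 falls and 0 rises among 25 (20%, against 3.25%), with a median of -0.16 and 3 positive values. Btg2, an antiproliferative gene, went from 8.58, 8.49 and 8.87 to 7.70, 7.33 and 7.33 (2.28-fold, adjusted p = 0.000173). Sesn1, a sestrin gene that restrains mTORC1, stood at 8.87, 8.79 and 8.72 against 8.22, 7.94 and 8.36, and Trp53inp1, a stress-induced autophagy gene, at 10.65, 10.45 and 10.34 against 9.82, 9.93 and 9.87. Ccng2, a cyclin gene of quiescent cells, fell 1.48-fold and Fas, a death receptor gene, 1.51-fold. Several of these are also known as FoxO targets. The count was 2 without control replicate 1 and 3 without control replicate 2, Cre+ replicate 1 or Cre+ replicate 2. Unfolded protein response genes had 3 falls and 0 rises among 28 (10.7% called) and a median of -0.13 (-0.08 without control replicate 2), with 24 negative values: Ern1, a sensor kinase gene (9.57, 9.52 and 9.35 against 8.69, 8.65 and 8.64, 1.76-fold), Herpud1 (9.66, 9.77 and 9.83 against 9.24, 9.28 and 9.28) and Dnajb9 (1.30-fold). Lysosomal genes had a median of -0.09 with 33 negative values among 42, and 1 member, Ctsl, was called. Without control replicate 3 the lysosomal median was -0.01. Calls ended for Trp53inp1 without control replicate 1 or Cre+ replicate 1 (adjusted p up to 0.0550), Sesn1 without control replicates 1 or 2 or Cre+ replicate 2 (adjusted p up to 0.0590), Fas without control replicates 1 or 2 or Cre+ replicates 1, 2 or 3 (adjusted p up to 0.140) and Dnajb9 whichever array was left out (adjusted p up to 0.124).

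Of 25 amino acid stress response genes 3 rose, 3 fell and 19 were not called (24% called, against 6.06% of all genes). The rises were of serine synthesis and asparagine synthesis: Phgdh (8.16, 7.85 and 8.37 against 9.20, 9.55 and 8.89, 2.13-fold, adjusted p = 0.00205), Psat1 (8.73, 8.65 and 9.05 against 9.45, 9.68 and 9.26, 1.57-fold) and Asns (1.29-fold). The falls were of the stress factor gene Atf3 (10.77, 10.54 and 11.35 against 9.32, 9.31 and 9.27), of Slc7a11 and of the translation inhibitor gene Eif4ebp1 (1.37-fold). Of 19 tRNA synthetase genes, Cars alone was called, lower, at 9.19, 9.16 and 9.06 against 8.68, 8.60 and 8.56 (1.44-fold, adjusted p = 0.00106), while the list median was 0.13. Calls ended for Psat1 without control replicates 1 or 2 or Cre+ replicates 1 or 2 (adjusted p up to 0.0789) and Eif4ebp1 without control replicates 1, 2 or 3 or Cre+ replicates 1 or 2 (adjusted p up to 0.132).

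**Figure D5:**
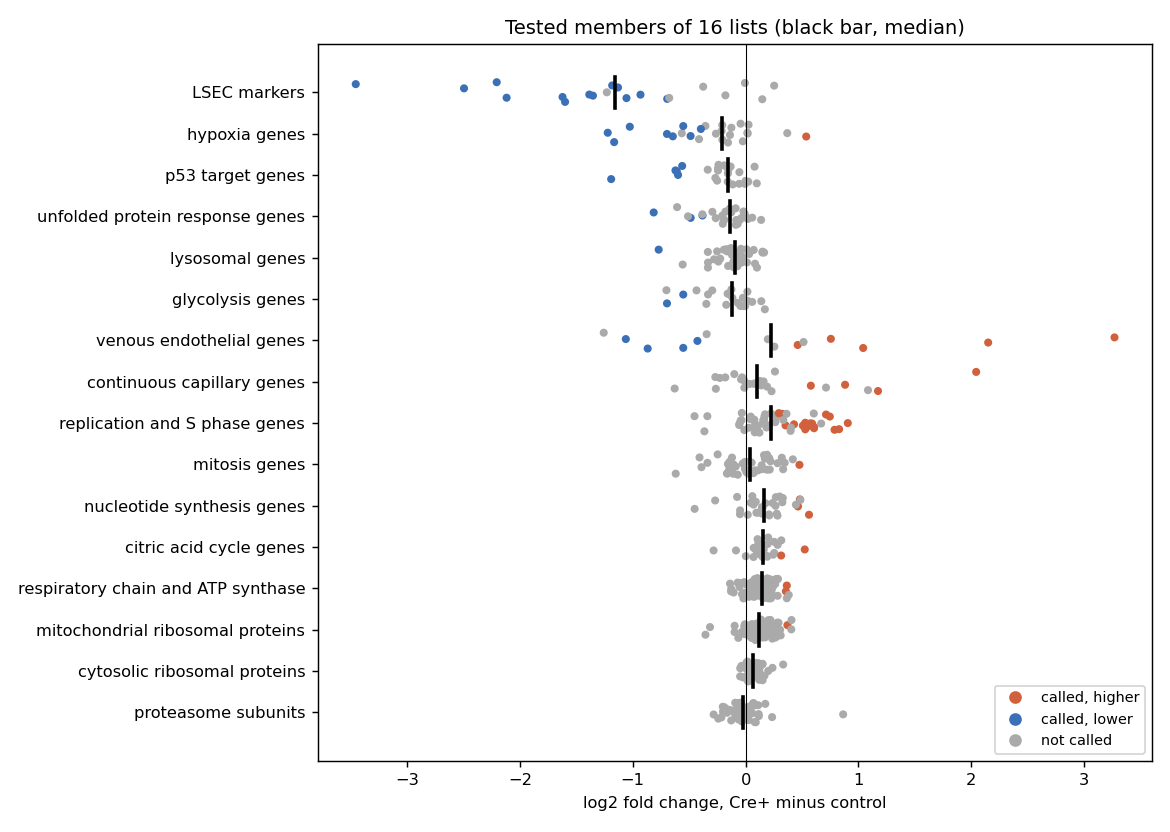
Log2 fold change (Cre+ minus control) of every tested member of 16 gene lists, with called members coloured and the list median as a black bar. LSEC markers (median -1.16) and hypoxia genes (-0.21) lie to the left, replication and S phase genes (0.22) and the mitochondrial lists (0.12 to 0.16) to the right, and venous genes on both sides.

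Solute carriers and ABC transporters had more called falls than rises; the difference was not tested. Of 245 solute carrier genes 9 fell and 3 rose. Slc35b3, a nucleotide sulfate transporter gene of the Golgi, went from 10.26, 10.61 and 10.37 to 8.78, 8.88 and 8.86 (2.98-fold, adjusted p = 6.54e-06), and Slc15a2, a peptide transporter gene, from 7.06, 7.58 and 7.55 to 5.91, 6.06 and 5.93 (2.70-fold). Slc5a3, the myo-inositol transporter gene, rose from 8.45, 8.59 and 8.72 to 9.36, 9.58 and 9.60. The share of solute carriers called, 4.90%, was below the 6.06% of all genes, and that of ABC transporters was 14.7%. ABC transporter genes had 4 falls and 1 rise among 34, and 3 of the falls were of drug efflux pumps: Abcg2 (10.27, 10.67 and 10.34 against 9.03, 8.97 and 9.10, 2.63-fold, adjusted p = 8.95e-05), Abcb1b (9.72, 9.41 and 9.31 against 7.51, 8.25 and 7.95, 2.99-fold) and Abcb1a (1.39-fold). The rise was of another efflux pump gene, Abcc1 (9.45, 9.28 and 9.48 against 9.79, 9.78 and 10.11, 1.41-fold). Calls ended for Abcc1 without control replicate 2 or Cre+ replicate 3 (adjusted p up to 0.0713) and Slc15a2 without control replicates 2 or 3 or Cre+ replicates 1 or 3 (adjusted p up to 0.0606).

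In the family of orphan and adhesion receptors coupled to G proteins and in that of G protein subunits and RGS proteins, the called members fell, while Ednrb, a receptor of another family, rose as given above. These families had 8.70% and 8.11% of their members called, and actin and adhesion genes 12.5%, against 6.06% of all genes. Of the genes in any list or family 8.62% were called, so the counts do not set the 2 receptor and G protein families apart. Of 46 orphan and adhesion receptor genes 4 fell and 0 rose: Adgrl4, a receptor gene of angiogenic endothelium (11.59, 11.51 and 11.49 against 9.96, 9.93 and 10.33, 2.75-fold, adjusted p = 8.71e-05), Gpr4, an acid-sensing receptor gene (9.13, 9.21 and 9.06 against 7.95, 8.04 and 7.51), Gpr143 (2.31-fold) and Gpr182 (2.08-fold), an LSEC marker. Of 37 genes of G protein subunits and RGS proteins, Rgs2 (10.19, 10.26 and 10.08 against 9.27, 8.53 and 8.44), Gngt2 (2.38-fold) and Gng11 (1.67-fold) fell and 0 rose. Cell junction genes had 4 falls and 0 rises among 12 claudins and connexins (33.3%, against 3.25% of all genes called lower). Gja1, the connexin 43 gene, stood at 10.96, 10.87 and 10.84 against 9.28, 9.83 and 9.24 (2.72-fold, adjusted p = 0.000766). Gjc1, the connexin 45 gene, and Gjb5 fell 2.59-fold and 1.90-fold, both to levels under 6.87. Of 48 actin and adhesion genes 5 rose, among them Rdx, the radixin gene (9.83, 9.49 and 9.95 against 10.30, 10.30 and 10.52), Cnn2 (1.40-fold), Actn1 (12.14, 11.96 and 12.09 against 12.35, 12.67 and 12.57) and Flna (1.31-fold), and 1 fell. Calls ended for Gjb5 without control replicates 1 or 2 or Cre+ replicate 1 (adjusted p up to 0.0700) and Cnn2 without control replicates 1 or 3 or Cre+ replicates 1 or 3 (adjusted p up to 0.0751).

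BMP, TGF-beta and phosphatase genes went both ways. Called members made up 24.2% of TGF-beta and BMP genes, 9.09% of Eph and ephrin genes and 11.5% of phosphatase genes. They made up 6.78% of ubiquitin, 3.83% of zinc finger and 5% of Hox genes, against 6.06% of all genes. Among 33 TGF-beta and BMP genes 4 rose and 4 fell. The ligand gene Bmp2, the hepcidin-inducing signal of LSEC, stood at 9.83, 9.99 and 9.52 against 8.15, 7.93 and 8.46 (3.03-fold), and the co-receptor gene Tgfbr3 at 10.67, 11.10 and 10.46 against 10.04, 9.70 and 10.15. Tgfb2 (7.19, 7.32 and 6.93 against 7.54, 7.89 and 8.0), the receptor gene Acvrl1 (7.23, 7.69 and 7.54 against 7.99, 8.04 and 8.38) and the adaptor gene Tgfb1i1 (9.66, 9.65 and 9.55 against 10.15, 10.24 and 10.29) rose with Bmper. Efnb1, an ephrin gene, was the 1 called member of 11 Eph and ephrin genes, at 8.63, 8.52 and 8.31 against 9.92, 9.69 and 10.21 (2.74-fold, adjusted p = 0.000136). Of 52 phosphatase genes 5 fell, led by the MAP kinase phosphatase genes Dusp5 (8.11, 7.85 and 8.15 against 7.02, 7.63 and 6.93) and Dusp1 (11.23, 11.29 and 11.67 against 10.93, 10.59 and 10.47), and 1 rose, Ptprs. Rnf144b (10.07, 9.5 and 9.81 against 8.32, 8.23 and 8.27, 2.87-fold, adjusted p = 5.28e-05), a ubiquitin ligase gene, had the largest change among 177 ubiquitin conjugation and ligase genes, of which 7 fell and 5 rose. Zfpm2, a GATA cofactor gene, had the largest among 287 zinc finger genes, of which 5 fell and 6 rose, at 7.93, 8.04 and 7.71 against 5.87, 6.15 and 6.78. Calls ended for Tgfbr3 without control replicates 1 or 2 or Cre+ replicate 2 (adjusted p up to 0.0737), Dusp1 without control replicate 3 or Cre+ replicates 2 or 3 (adjusted p up to 0.0599) and Ptprs without control replicates 1 or 2 or Cre+ replicates 1 or 2 (adjusted p up to 0.0713). Of 20 Hox genes Hoxb5 alone was called. Over all 63 families read from gene symbols, the median family had 8.33% of its members called and 38 families lay above the 6.06% of all genes, while 3 had none called.

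Called genes of the inflammatory lists went both ways. The share called was 14.3% for interleukin, 7.69% for chemokine, 15.2% for NF-kappa B target, 13.6% for interferon-induced and 37.5% for Gimap genes, against 6.06% of all genes (2.81% higher and 3.25% lower). Interleukin and receptor genes had 4 rises, of Il6, Il1a, Il4ra (9.54, 9.62 and 9.66 against 10.34, 10.22 and 10.28, 1.60-fold, adjusted p = 0.000198) and Il13ra2, and 3 falls, of Il16, Il15 (7.46, 7.69 and 7.36 against 6.94, 6.89 and 7.02) and Il1rl2, among 49. Il4ra and Il13ra2 encode receptors of the type 2 cytokines. Among 39 chemokine and receptor genes 3 fell and 0 rose: Ccl2 (11.87, 12.08 and 11.86 against 10.99, 11.40 and 10.49), Cxcr4 (8.37, 8.09 and 8.75 against 7.78, 6.24 and 6.84) and Cxcl10. NF-kappa B target genes had 3 rises, of Il6, Bcl3 (7.60, 7.28 and 7.47 against 8.10, 8.07 and 7.91) and the feedback inhibitor gene Tnfaip3, and 2 falls, of Ccl2 and Cxcl10, among 33, with a median of -0.06. Interferon-induced genes had 5 falls and 1 rise among 44. Ifi204 (8.88, 8.73 and 8.94 against 7.73, 6.93 and 7.48), Ifi202b (10.56, 10.39 and 10.47 against 9.47, 9.07 and 9.11) and Ifi207, neighbouring members of a DNA-sensing family with similar sequences, may share probe signal. Tlr4, the endotoxin receptor gene, stood at 9.66, 9.87 and 9.90 against 9.39, 9.04 and 9.21 (1.51-fold, adjusted p = 0.00902). Gimap genes, GTPases of lymphocytes and endothelium, had 3 falls among 8, of Gimap6 (9.54, 9.66 and 9.40 against 7.82, 8.19 and 8.15), Gimap4 (9.38, 9.43 and 8.94 against 7.66, 8.0 and 8.22) and Gimap8, and the count stayed at 3 whichever single array was left out. Calls ended for Il13ra2 without control replicates 1, 2 or 3 (adjusted p up to 0.120), Cxcr4 without control replicate 3 or Cre+ replicate 3 (adjusted p up to 0.0629), Cxcl10 without control replicates 2 or 3 or Cre+ replicates 1, 2 or 3 (adjusted p up to 0.0988) and Ifi207 without control replicate 3 or Cre+ replicates 2 or 3 (adjusted p up to 0.0627).

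Of the blood cell marker lists, that of mast cells and basophils had array means that did not overlap between the genotypes, as did that of dendritic cells, 6.99 to 7.24 in control and 6.70 to 6.83 in Cre+ samples. Mast cell and basophil markers averaged 6.93, 7.02 and 6.78 on control arrays and 8.14, 8.18 and 7.54 on Cre+ arrays. Of 8 tested, Tpsab1, Hdc and Cpa3 rose and Kit, which endothelium also expresses, fell from 10.03, 9.97 and 9.20 to 8.55, 8.63 and 8.5. Tpsab1, a tryptase gene, stood at 4.82, 6.08 and 5.28 against 9.38, 10.10 and 7.20, so its Cre+ samples differed among themselves by 2.89, as did those of Cpa3 by 2.35. At or above the limit of 6.87 were 4 of the 8 markers in control and 7 in Cre+ LSEC. Mean control levels of Tpsab1, Cpa3 and Hdc were 5.39, 5.76 and 5.81, under that limit. Within LSEC these genes could thus reach it only through their Cre+ levels. The share called and the means of this list rest in part on that filter, which kept 8 of 11 measured markers. With the filter at the 60th percentile 1 member was called. Without Cre+ replicate 1 the mast cell list had 1 called member, and without Cre+ replicate 2 it had 2. Neutrophil markers averaged 7.58 to 8.08 in control and 8.0 to 8.78 in Cre+ samples, ranges that overlap, with 2 rises among 9, of S100a8 and Lcn2. Kupffer cell and macrophage markers had 1 fall among 16, of Cd14 (10.19, 10.48 and 10.15 against 8.97, 9.20 and 8.29), and ranges of 9.10 to 10.13 and 8.59 to 9.94. T and NK cell markers had 1 fall, of Klrd1, among 12, dendritic cell markers 1, of H2-Ab1, among 9, stellate, fibroblast and mural markers 1 rise, of Hgf, and 2 falls, of Col1a2 and Pdgfra, among 17, and hepatocyte markers 1 rise, of Ttr, among 6. B cell, cholangiocyte, erythroid and platelet, and lung epithelial lists had 0 called; in limma, 1 of these 27 genes had an unadjusted p under 0.05. Called members were 50% of mast cell and basophil, 22.2% of neutrophil and 6.25% of macrophage markers. They were 8.33% of T and NK cell and 11.1% of dendritic cell markers. Stellate, fibroblast and mural markers had 17.6% called and hepatocyte markers 16.7%, against 6.06% of all genes. No tested marker of any list stood at the floor of 0 on an LSEC array. The part of these cells in the rises of Il6, Il1a, S100a8, Lcn2 and the mast cell genes was not tested. Without control replicate 3 and Cre+ replicate 1, the samples with the most macrophage RNA, the mast cell list had 2 called members, the macrophage list 4 and the neutrophil list 1. Calls ended for S100a8 without control replicates 1, 2 or 3 or Cre+ replicates 1 or 3 (adjusted p up to 0.126), H2-Ab1 without control replicates 1 or 3 or Cre+ replicates 1, 2 or 3 (adjusted p up to 0.0891), Col1a2 without control replicate 3 or Cre+ replicates 1 or 3 (adjusted p up to 0.138), Pdgfra without control replicates 1, 2 or 3 or Cre+ replicates 2 or 3 (adjusted p up to 0.152) and Ttr whichever array was left out (adjusted p up to 0.128).

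Setting the genotype effect in LSEC against those in lung endothelial cells and thymus tests whether these changes differed between tissues. In lung endothelial cells 14 genes (0.107%) and in thymus 54 (0.414%) were called, with 2 arrays a group against 3 in LSEC, so counts in those tissues cannot be read as smaller effects. The difference of effects itself passed for 80 genes (0.614%) between LSEC and lung and for 305 (2.34%) between LSEC and thymus. Among the 366 LSEC rises, 33 differed from lung and 75 from thymus, and 2 and 4 were called in those tissues. Among the 424 LSEC falls, 43 and 138 differed, and 9 and 9 were called there. The median effect of the LSEC falls was -0.12 in lung and 0.03 in thymus; that of the rises was 0.05 and 0.07. Of the 4 largest differences from lung in each direction, Sema3d, Lyve1, Fmo1 and Pdk4 were lower and Il6, Mcam, Sema3g and Plac8 higher in LSEC than in lung. Mcam rose by 2.01 in LSEC and stood at -0.74 in lung, a difference of 2.75 (adjusted p = 0.0071). Sema3g rose by 0.97 in LSEC, from 4.57, 4.25 and 3.82 to 5.02, 5.72 and 4.79, both under the limit of 6.87, and stood at -1.32 in lung, a difference of 2.28 (adjusted p = 0.0315). Pdk4 differed by -2.49 (adjusted p = 0.0105). The largest differences from thymus were of Lyve1, Epha2, Fmo1 and Angpt2 below and of Il6, Hdc, Vwf and Magea4 above. Epha2, an ephrin receptor gene, was bright in LSEC and not called there, at 10.04, 10.04 and 10.09 in control and 9.86, 10.22 and 9.99 in Cre+ samples, and rose by 4.41 in thymus (adjusted p = 1.84e-06). The difference between LSEC and lung was called for 44 genes without control replicate 1, 32 without control replicate 2 and 46 without control replicate 3.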

How the data were processed

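Affymetrix mouse genome arrays with 1 colour measured RNA of 14 samples. The authors deposited 1 value per probe set and array, read here as log2 from its range and floor of 0; how probes were summarized and normalized, and the log base, the labels do not state. Array medians spread over 0.282, more than 0.2, so all arrays were quantile normalized. Of 45101 probe sets 34945 had 1 gene symbol in the platform annotation, 932 several and 9160 none, and 64 were array controls; 34741 matched a gene ID. A gene was its brightest such probe set by the mean over all 14 arrays. A gene was tested where its mean in at least 1 tissue was 6.87 or more (the 40th percentile over probe sets). Tests used limma 3.58.1 in R 4.3.3 (lmFit and eBayes, 6 group means, 8 residual degrees of freedom), with Benjamini-Hochberg adjustment over all 13035 genes and a threshold of 0.05. The steps were tested on simulated data. Alternatives were the scaling, the filter, the probe set rule, the variance model, array weights, the LSEC arrays alone, a replicate block and each LSEC array left out, plus 1 pair left out together, added after seeing the data.

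The members and lists were chosen with earlier results of these data known. Of the 3572 genes in any list or family 8.62% were called, against 6.06% of all genes tested. Named genes were Foxo1, Foxo3 and Foxo4; ranks 13 to 36 by size in each direction among called genes without overlap; the 10 brightest called genes; the 8 with the largest spread within a group; up to 4 called members of each list or family; and, between tissues, the 4 largest differences of effect each way. Chosen after their values had been seen, to complete a count or describe a list, were Abcb1a, Ackr1, Actn1, Acvrl1, Asns, Ccng2, Flna, Gfpt2, Hif1a, Icam1, Il15, Il1rl2, Il4ra, Lig1, Mcm2, Mcm3, Mcm4, Mcm6, Mcm7, Mxi1, Nrp2, Orc6, Pola1, Pole2, Prim2, Pros1, Rfc4, Rpa1, Rpa2, Rpa3, Slc5a3, Stab1, Stab2, Tgfb1i1, Tgfb2, Tmem14a and Tnfaip3. Leave-out calls were computed for the genes of the rule.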

Additional observations from a re-analysis of the deposited data

Results flagged for a closer look

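The genotype effect differed between LSEC and lung endothelial cells for 80 genes and between LSEC and thymus for 305 genes, tested as the difference of the effects in limma with Benjamini-Hochberg adjustment. Each value that follows is such a difference on the log2 scale, effect in LSEC minus effect in the other tissue. Against lung, Sema3d (-3.42, adjusted p = 0.0349), Lyve1 (-3.37, adjusted p = 0.00218), Fmo1 (-3.35, adjusted p = 0.0139) and Pdk4 (-2.49, adjusted p = 0.0105) were the most negative. Il6 (4.50, adjusted p = 0.0198), Mcam (2.75, adjusted p = 0.0071), Sema3g (2.28, adjusted p = 0.0315) and Plac8 (2.19, adjusted p = 0.0378) were the most positive against lung. Against thymus, Lyve1 (-4.51, adjusted p = 0.000101), Epha2 (-4.44, adjusted p = 5.43e-05), Fmo1 (-3.75, adjusted p = 0.00399) and Angpt2 (-3.72, adjusted p = 0.000317) were the most negative. Il6 (3.67, adjusted p = 0.0226), Hdc (3.12, adjusted p = 0.0328), Vwf (2.74, adjusted p = 0.0209) and Magea4 (2.47, adjusted p = 0.0339) were the most positive against thymus. Both comparisons use the same LSEC arrays. For Epha2 the effect was -0.03 in LSEC and 4.41 in thymus.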

How the results depend on the processing

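Counts of called genes depended on the setting more than their direction did. The main counts were 790 called in LSEC, 366 higher and 424 lower, and 80 and 305 differences from lung and thymus. Leaving out 1 LSEC array gave 493 to 620 called, 221 to 292 higher, 268 to 344 lower, and 32 to 95 and 211 to 299 differences. Leaving out control replicate 3 and Cre+ replicate 1 together, chosen after seeing the data, gave 472 called and 179 higher. With no level filter 239 genes were higher, and 30 and 122 differed from lung and thymus. Testing every named probe set gave 1369 called, 690 higher, 679 lower and 483 differing from thymus. With a trended, robust spread 125 genes differed from lung, and with array weights 168 and 193 differed from lung and thymus. Only the 6 LSEC arrays gave 396 called, 164 higher and 232 lower. Median centring in place of quantile normalization shifted the split of higher to lower to 366 and 373, and values as deposited to 375 and 354. With the replicate number as a block the counts were 352, 147, 205, 1 and 23. Deviations of same-numbered LSEC samples from their group means correlated at -0.31, -0.09 and -0.26, and those of the other pairs at -0.09 to 0.33. The labels do not say what same-numbered samples share, and these correlations cannot settle it. The other settings kept each of these counts within 1.5 times. Over the named genes and settings, 889 values kept their direction and lost the call, 38 gained it and 15 reversed. The reversals, with the cause not tested, were Itsn2 -0.063, Sgsh 0.035 and Mrpl17 -0.28 with the mean of all probe sets, Itga8 0.085 with only the 6 LSEC arrays, and Epha2 0.0056 as deposited. With 1 LSEC array left out, Hbb-b2 ran from -0.18 (without control replicate 2) to 2.18, Epha2 from -0.13 to 0.047 and Sox9 from -0.94 to 0.13 (both without Cre+ replicate 1), and Krt7 from -0.98 to 0.035 and Sh2d1a from -1.69 to 0.25 (both without Cre+ replicate 3). Without both arrays Epha2 was 0.063, Sox9 0.38, Krt7 0.011, Sh2d1a 0.28 and Trav6-3 0.24. With 3 arrays a group and 8 residual degrees of freedom, differences under 1.20-fold were not called, and sizes that rest on a level under 6.87 are uncertain.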

Other observations

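Basement membrane, collagen and glycosyltransferase genes had called members in both directions. Of 11 laminin and nidogen genes (27.3% called, against 6.06% of all genes), Nid2 and Lama4 fell and Lamc1 rose. Lama4, the laminin chain gene of endothelial basement membrane, stood at 9.48, 9.21 and 8.86 in control samples and 8.13, 8.37 and 8.08 in Cre+ LSEC (1.98-fold, adjusted p = 0.00260 in limma), and the count of called members was 3 whichever single LSEC array was left out. Of 35 collagen genes (14.3% called), Col13a1, Col5a2 (9.08, 8.5 and 9.19 against 9.92, 9.77 and 9.99), Col18a1 (1.84-fold) and Col6a3 (1.66-fold) rose and Col1a2 fell, with a median of -0.02 against 0.01 over all genes tested. Calls ended for Col18a1 without control replicates 1, 2 or 3 or Cre+ replicates 2 or 3 (adjusted p up to 0.162), Col6a3 without control replicate 1 or Cre+ replicates 1 or 2 (adjusted p up to 0.0944) and Col1a2 without control replicate 3 or Cre+ replicates 1 or 3 (adjusted p up to 0.138). Serpinh1, the collagen chaperone gene, rose from 9.58, 9.54 and 9.90 to 11.02, 10.65 and 10.41 (2.03-fold, adjusted p = 0.00215). Of 72 glycosyltransferase genes 6 rose and 3 fell (12.5% called), with a median of -0.08. The largest rise among them was of Chst11, a chondroitin sulfotransferase gene, from 7.58, 7.0 and 7.23 to 8.75, 9.13 and 7.64 (2.35-fold, adjusted p = 0.0366). The call ended for Chst11 without control replicates 1, 2 or 3 or Cre+ replicates 1 or 2 (adjusted p up to 0.118). St8sia4, a polysialyltransferase gene, fell from 9.87, 9.69 and 9.18 to 8.35, 8.69 and 8.03 (2.34-fold, adjusted p = 0.00449), and Chst15, another sulfotransferase gene, from 10.31, 10.36 and 10.02 to 9.53, 9.15 and 9.52 (1.77-fold).

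Rarb, a retinoic acid receptor gene, rose from 7.88, 7.31 and 7.26 to 9.21, 8.43 and 8.69 (2.46-fold, adjusted p = 0.00468), the largest of 3 called rises among 29 nuclear receptor genes (10.3% called, against 6.06% of all genes).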
